A study of Rattus norvegicus with 30 samples.

Results

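The comparison set out here is that of the SS rats, which gave up much of their methamphetamine (METH) intake once it was punished, with the CT rats, which had neither drug nor shock. Its members are all libraries whose titles begin with SS or CT: 6 SS and 7 CT libraries, 13 of the 30 in the series. SS rats were adult, wild type Sprague-Dawley rats that self-administered METH for 21 days and then received a foot-shock with some of their lever presses for 8 days. CT rats of the same strain and age pressed a lever for saline and were not shocked. Per the study, all rats were male. The labels and the study's abstract place euthanasia 2 h after the last session, whereas its methods place it immediately after. 3 further groups entered the fit: SR, METH rats that went on taking the drug under punishment (7 libraries), and YSR and YSS, saline rats shocked whenever a paired SR or SS rat was shocked (5 libraries each). SS and CT rats differed in both drug and shock, so that these cannot be told apart in SS vs. CT. SS vs. YSS sets METH rats against saline rats, both of them shocked. SS rats brought on shocks by their own presses and YSS rats did not. Drug and control over the shock thus cannot be told apart in SS vs. YSS. The labels do not say which YSS rat was yoked to which SS rat, so that SS vs. YSS is a comparison of groups and not of pairs. SS rats were also picked out by their own behavior, not assigned at random.

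METH makes nerve endings release dopamine and other monoamines, and repeated intake alters gene expression in many brain regions. The hippocampus, which serves memory for places and events, links a drug or a shock to the setting in which it was met. Bulk RNA sequencing of a dissected region reads the summed RNA of all its cells, so that fewer cells of a type and less RNA per cell cannot be told apart. The dissection protocol names the hippocampus while the tissue field names the dorsal striatum. The tables list Ensembl rat identifiers without gene names, so that the tissue could not be checked against markers and genes are described here by position, structure and level.

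SS libraries held 16202659 to 19110830 counts and CT libraries 16224250 to 19404440. A gene at 3 counts or fewer, at most 0.185 CPM (counts scaled to library size), was treated as not detected. Titles also carry a number taken here as a cohort: XII for 2 SS libraries and 1 CT library, XIII for 4 SS and 6 CT. No pair of libraries within SS or CT agreed within sampling noise, so each counted once.

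Few genes set SS apart from CT rats, and the strongest changes were falls. Of 15797 genes tested by edgeR, 16 passed an adjusted p-value of 0.05 and all of them were lower in SS (0.101% of genes tested). At an unadjusted p-value under 0.05, 428 genes were higher (2.71%) and 363 lower (2.30%). Together they made up 5.01% of genes tested, where the threshold alone passes 5% if no gene differs. Their median change was 0.20 on the log2 scale, or 1.15-fold. A change of at least 1.7-fold at that p-value was found for 24 higher (0.152%) and 59 lower genes (0.373%). With cohort as a covariate there were 0 higher and 19 lower genes (0.120%), and these held all 16 of the first fit. DESeq2 called 23 genes, 2 of them higher, and Tukey's test on log2 CPM called 12, none higher.

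**Figure D1:**
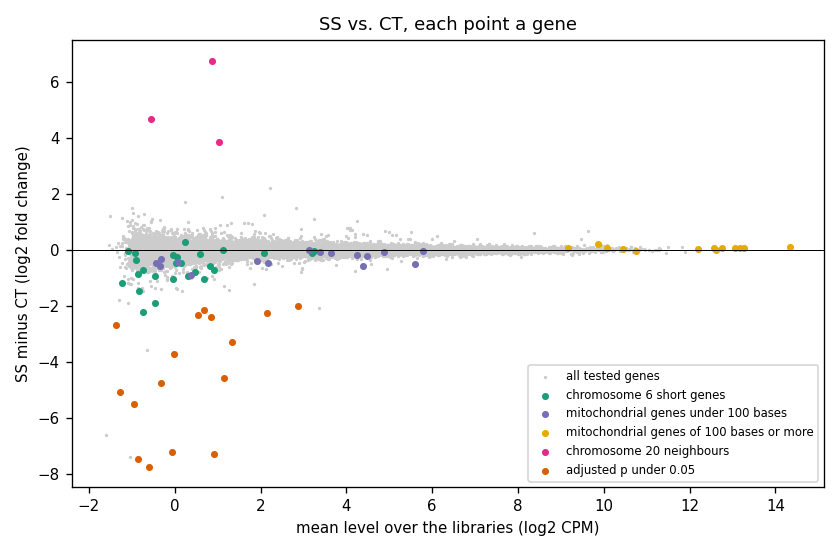
Difference between SS and CT (log2 fold change, vertical axis) against the mean level (log2 CPM, horizontal axis) of each of the 15797 tested genes, with groups described in the text in color. Most genes lie close to 0, the 16 genes at an adjusted p under 0.05 lie between -7.76 and -2.02, and 3 neighbors on chromosome 20 lie between 3.83 and 6.75, 2 of them with fitted values that depend on the prior count.

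The 16 genes that fell lay on 9 chromosomes or scaffolds, and their changes ranged from -7.76 to -2.02 on the log2 scale. They were of low level, with a median of 0.27 log2 CPM against 4.35 for all tested genes. In 8 of the 16, every SS library was at 3 counts or fewer. 2 of these 8 held 0 counts in all SS libraries, and their CT means were at least 7.30-fold and at least 8.98-fold higher than 3 counts in each SS library. The other 6 held 1 to 10 counts over the 6 SS libraries together, and the ratios of pooled CT to SS counts, scaled to library size, ran from 6.86 (95% exact interval 3.55 to 14.8, counting error only) to 264 (47.1 to 10470). Of the 8 remaining genes, 5 were above 3 counts in every SS library and 3 were at or under 3 counts in some. Levels of all 16 were separate between groups, a property of 29 lower genes in all (0.184% of genes tested). The 16 were chosen by p-value in these same libraries, so that their separation is no further support. The 8 at 3 counts or fewer in every SS library entered the test only through libraries of other groups, in which they were higher. Summed over the 16, CT libraries ranged from 43.4 to 80.0 CPM with a median of 68.1, and SS libraries from 6.24 to 10.8 CPM with a median of 8.90.

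The same 16 genes were also low in the yoked rats. Their sum was 7.82 to 11.3 CPM in YSS and 7.93 to 10.1 CPM in YSR libraries. In SS vs. YSS, 7 of the 16 were at 3 counts or fewer in every library of both groups, where no difference could be detected. Among the 8 genes above 3 counts in some SS library, SS vs. YSS ranged from -0.31 to 1.59 on the log2 scale with a median of 0.06, and none passed an unadjusted p-value of 0.05. SR libraries were split. In 3 of them (XIII-L09, XII-L05 and XII-L07) all 16 genes stood above every SS library, and in the other 4 this held for 2 to 4 genes. Those 3 carry the letter L in their titles and the other 4 the letter R. The sum was high in CT and low in SS libraries of both letters, and what the letter stands for was not determined here. All 16 passed an unadjusted p-value of 0.05 in SS vs. SR, and 0 passed an adjusted one. SS vs. CT, SS vs. YSS and SS vs. SR share the SS libraries and are not independent of each other. Nor do the 16 genes count as 16 independent changes, since all were high in every CT library and in the same 3 SR libraries. Why they moved together was not tested.

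**Figure D2:**
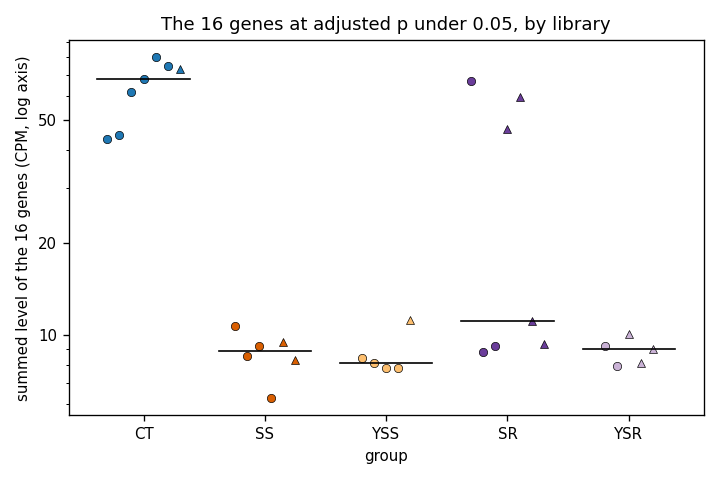
Summed level of the 16 genes (CPM, log axis) in each library by group, circles for cohort XIII, triangles for cohort XII and lines for group medians. The CT libraries lie between 43.4 and 80.0 CPM and the SS libraries between 6.24 and 10.8 CPM, with SR libraries at both levels.

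ENSRNOG00000057527, a gene of 1 exonic block and 272 bases on chromosome 5 (58994682 to 58994953, minus strand), had the smallest p-value of all genes. It held 40 to 72 counts in CT libraries with a median of 61, and 8 to 19 in SS libraries with a median of 9.5. Every SS library was below every CT library. The level was 3.43 ± 0.651 CPM (SD, n = 7) in CT and 0.656 ± 0.280 CPM (SD, n = 6) in SS. The fitted change was -2.39 on the log2 scale (SE 0.32, adjusted p = 0.000281), and -2.22 within cohort XIII. YSS libraries held 14, 15, 16, 11 and 17 counts, and SS vs. YSS was -0.31 on the log2 scale (unadjusted p = 0.420).

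ENSRNOG00000002911, with 15 exonic blocks on chromosome 14 (19176277 to 19191863, minus strand), had the highest level of the 16. It held 149 to 359 counts in CT libraries with a median of 278, against 43 to 85 in SS libraries with a median of 60. The groups did not overlap, and no SS library came near the detection floor. The level fell from 14.5 ± 4.15 CPM (SD, n = 7) to 3.58 ± 1.08 CPM (SD, n = 6), a log2 change of -2.02 (SE 0.29, adjusted p = 0.000373). SS vs. YSS was 0.01 on the log2 scale (unadjusted p = 0.975) and SS vs. SR was -1.15 (unadjusted p = 0.000489).

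3 of the 16 genes adjoined each other within 50.96 kb of chromosome 2 (181987217 to 182038178), with no other tested gene between them. Their log2 changes were -4.76, -3.71 and -7.30. The most abundant, at 182027115 to 182038178, held 69 to 121 counts in CT and 0 to 1 count in SS libraries. Summed, the trio gave 7.04 to 12.9 CPM in CT, 0.0555 to 0.514 CPM in SS and 0.0523 to 0.216 CPM in YSS libraries.

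Further genes fell without passing the adjusted threshold. Of the 29 lower genes with separate groups, 19 were called in one fit or both and 10 in neither. Of these 10, 8 were above 3 counts in some SS library, with changes of -1.90 to -0.16 on the log2 scale. The smallest p-value among them belonged to a gene of 15 exonic blocks on chromosome 13 (78805347 to 78833192). It held 71 to 122 counts in CT libraries with a median of 98, and 49 to 68 in SS libraries with a median of 61. That is a level of 5.51 ± 0.699 CPM in CT and 3.40 ± 0.462 CPM in SS, and a log2 change of -0.70 (SE 0.15) that missed the threshold (adjusted p = 0.0677). Of the lower genes at 1.7-fold not called in the fit without cohort, 41 were above 3 counts in some SS library. They were mostly sparse: 30 had a mean under 1 CPM over the 13 libraries, and the groups of 5 did not overlap.

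Among genes of the mitochondrial genome, 7 short ones were lower in SS rats at an unadjusted p-value under 0.05, 0 of them at an adjusted one in the group-only fit, and none of the long ones passed either. Mitochondria read out their circular genome as long precursors, in which short transfer RNA genes separate the longer genes, and the tables do not give a gene's type. Of the 22 mitochondrial genes under 100 bases, 16 passed the filter, and all 16 had a negative log2 change with a median of -0.37. The 7 that passed were 43.8% of those tested, against 2.30% of all genes, and 0 rose. Of the 13 genes of 204 bases or longer, 0 fell and 0 rose, and their median change was 0.05. The median over all tested genes was 0.00475.

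The clearest of the short genes lay at positions 6865 to 6933 and 3835 to 3903, each of 69 bases. The first held 821 to 1109 counts in CT libraries with a median of 1051, and 623 to 806 in SS libraries with a median of 701.5. The second held 368 to 528 counts in CT with a median of 469, and 255 to 359 in SS with a median of 304.5. In both, every SS library was below every CT library once scaled to CPM. Their levels fell from 58.1 ± 5.95 to 40.4 ± 4.31 CPM and from 26.2 ± 3.01 to 17.4 ± 1.38 CPM. The log2 changes were -0.52 (SE 0.13, adjusted p = 0.183) and -0.58 (SE 0.14, adjusted p = 0.119). With cohort as a covariate both passed (adjusted p = 0.0190 and 0.0395), and within cohort XIII they were -0.59 and -0.59. Another gene with separate groups, at 7693 to 7756, held 23 to 38 counts in CT and 8 to 23 in SS libraries, with a log2 change of -0.90 (adjusted p = 0.386).

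In SS vs. YSS the 16 short genes had a median difference of -0.15. At an unadjusted p-value under 0.05, 2 of the 16 were lower, against 1.97% of all genes. The gene at 15280 to 15346 was also among those lower in SS vs. CT, and the gene at 2665 to 2739 was not. The gene at 3835 to 3903 held 296 to 374 counts in YSS libraries. In SR libraries it held 406, 535 and 473 counts in XIII-L09, XII-L05 and XII-L07, the libraries in which the 16 genes above were high, and 232 to 335 in the other 4. The gene at 6865 to 6933 did not follow that split: it held 790, 1282 and 1022 counts in those 3 SR libraries, and 560, 659, 1071 and 707 in the other 4. Nor did the sum of the short genes, at 233 CPM in XIII-L09 against 240 in XIII-R09 and 234 in XII-R05.

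The mitochondrial share of all counts overlapped between groups, at 6.40% to 8.65% in CT and 7.02% to 8.92% in SS libraries. Summed, the short genes gave 214 to 299 CPM in CT with a median of 273, and 186 to 264 CPM in SS with a median of 215, so that the sums overlapped too. The class was chosen after its values were seen and was not tested as a set. Leaving out SS library XIII-L07 or XII-L03 left 4 of the 7 genes, and Tukey's test left 3. Reads were longer than these genes and the use of strand is not given, so that counts on them and on adjoining genes cannot be fully told apart.

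**Figure D3:**
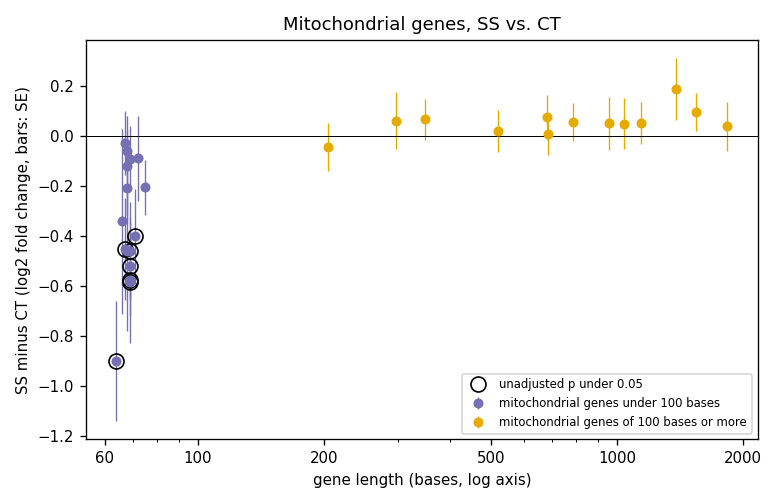
Log2 fold change of SS over CT (vertical axis, bars show the SE) of the 29 tested mitochondrial genes against gene length in bases (log axis), with rings on genes at an unadjusted p under 0.05. All 16 genes under 100 bases lie below 0 and 7 of them carry rings, and the 13 longer genes lie between -0.04 and 0.19.

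In a row of short genes on chromosome 6, 9 of 26 were lower in SS rats at an unadjusted p-value under 0.05 and 0 at an adjusted one. It was the longest run in the genome of tested genes with 1 exonic block under 150 bases, gaps of up to 5 kb allowed: 26 genes of 74 to 95 bases, all on the plus strand, within 27.65 kb (133770706 to 133798358). 25 of the 26 had a negative change, with a median of -0.52 on the log2 scale. The 9 that fell were 34.6% of the row, against 2.30% of all genes, and 0 rose. Elsewhere in the nuclear genome 225 genes of this kind were tested, of which 3 rose and 8 fell (3.56%), with a median change of -0.01.

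Counts in the row were small and its groups overlapped. The gene at 133785241 to 133785335 held 23 to 51 counts in CT libraries with a median of 39, and 11 to 29 in SS libraries with a median of 23.5 (log2 change -0.72, SE 0.26, adjusted p = 0.969). The gene at 133787033 to 133787117 had the strongest fall, -2.23 on the log2 scale (SE 0.96), with 2 to 32 counts in CT and 0 to 8 in SS. The most abundant gene, at 133791501 to 133791581, did not pass the test: it held 103 to 308 counts in CT, 105 to 198 in SS, and its log2 change was -0.06. Summed, the row gave 38.5 to 60.2 CPM in CT with a median of 45.5, 27.6 to 45.7 CPM in SS with a median of 38.1 and 37.9 to 55.2 CPM in YSS with a median of 43.0. Of the 9 genes, 4 stayed lower at that p-value without CT library XIII-L12, 5 without SS library XIII-L03, 4 without SS library XII-L03, 3 in cohort XIII alone and 0 under Tukey's test. The row, too, was chosen after its values were seen. Reads were longer than these genes as well, so that their counts cannot be told apart from those of longer transcripts across the row. Its genes therefore need not be independent of each other.

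Few genes rose by much. 3 of the 24 higher genes at 1.7-fold adjoined each other within 13.78 kb of chromosome 20 (3126829 to 3140610), with no other tested gene among them. They were found as the longest run among genes already chosen by p-value and fold, so that their unadjusted p-values are no support, and 0 passed an adjusted p-value of 0.05. 2 of them held 0 to 2 counts in every CT library, where the fitted change depends on the prior count. The ratios of pooled SS to CT counts, scaled to library size, were 29.5 (95% exact interval 13.3 to 81.7) and 133 (51.5 to 490) for these 2 and 14.7 (10.4 to 21.4) for the other. These intervals cover counting error only and not the spread between rats. The rat major histocompatibility complex, which presents antigens to T cells, is on chromosome 20, and whether these genes belong to it was not determined here.

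The rise on chromosome 20 came from 3 of the 6 SS libraries. ENSRNOG00000026051 (3135791 to 3140610, plus strand, 5 exonic blocks) held 2 to 10 counts in CT libraries with a median of 5. In SS libraries it held 4, 5 and 7 counts in XIII-L03, XIII-L05 and XIII-L07, and 134, 191 and 95 in XIII-R03, XII-L03 and XII-R03. In YSS libraries it held 80, 100, 95, 10 and 4 counts, and in SR libraries 92 counts in XII-L07 and 2 to 9 in the other 6. YSR libraries held 86 counts in XII-R10 and 5 to 14 in the others. The fitted change was 3.83 on the log2 scale (SE 0.97, adjusted p = 0.247), and an exact two-sided permutation test of log2 CPM over 1716 splits gave p = 0.0233. Within cohort XIII, where 1 of 4 SS libraries was high, it was 2.81 (exact permutation p = 0.148). The gene was picked by its p-value in these same libraries, so that neither permutation p-value is separate support. The neighbor at 3134704 to 3135301 was high in the same libraries, at 135, 221 and 91 counts in those 3 SS libraries and at 0 to 2 in the other SS libraries and in CT.

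The 21 other higher genes at 1.7-fold changed by 0.78 to 2.19 on the log2 scale, and in none of the 24 were the groups separate. Genes with separate groups rose by less. ENSRNOG00000007134, with 10 exonic blocks on chromosome 4 (171730635 to 171745377), had the smallest p-value of the higher genes. Its level was 104.5 to 115 CPM in CT libraries with a median of 114, and 119 to 132 CPM in SS libraries with a median of 121. The groups did not overlap, a property of 8 higher genes (0.0506% of genes tested). The mean rose from 111 ± 4.34 (SD, n = 7) to 123 ± 4.97 CPM (SD, n = 6), a log2 change of 0.14 (SE 0.03) that missed the threshold (adjusted p = 0.156). DESeq2 called this gene and ENSRNOG00000026051. YSS libraries held 116 to 121 CPM, and SS vs. YSS was 0.05 on the log2 scale (unadjusted p = 0.142). The other 7 higher genes with separate groups changed by 0.07 to 0.55 on the log2 scale, none passed an adjusted p-value of 0.05, and none of the 8 passed an unadjusted one in SS vs. YSS.

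**Figure D4:**
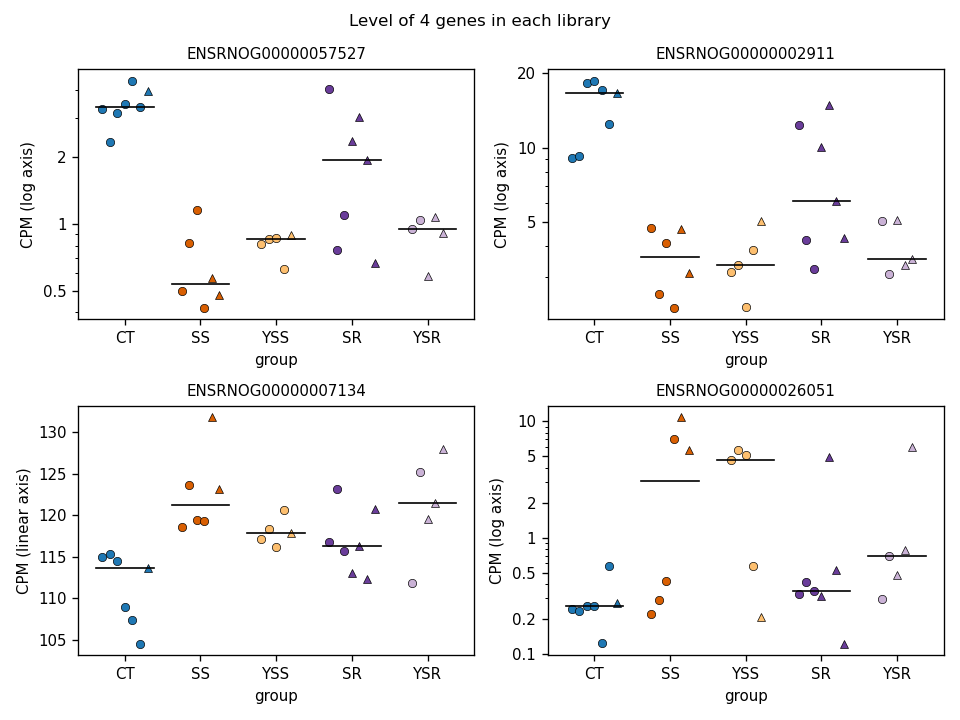
Level in CPM of the 2 lower and 2 higher genes named here in each library by group, circles for cohort XIII, triangles for cohort XII and lines for group medians. The axis is linear for ENSRNOG00000007134 and a log axis for the other 3 genes. SS libraries are apart from CT libraries for all but ENSRNOG00000026051, for which 3 SS libraries lie within the CT range.

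The numbers of higher and lower genes varied with gene size. Genes that rose at an unadjusted p-value under 0.05 had a median distance from start to end of 14.8 kb and genes that fell one of 33.3 kb, against 19.98 kb for all tested genes. Among 4299 genes of 1 to 10 kb, 146 were higher (3.40%) and 54 lower (1.26%). Among 1635 genes of 100 to 300 kb, 23 were higher (1.41%) and 72 lower (4.40%). The shortest class did not extend this order: among 827 genes of up to 1 kb, 21 were higher (2.54%) and 36 lower (4.35%). The median change in the classes of 1 to 10 kb and 100 to 300 kb was small, at 0.02 and -0.02 on the log2 scale. With cohort as a covariate the counts were 119 and 59 at 1 to 10 kb, 25 and 60 at 100 to 300 kb, and 20 and 40 at up to 1 kb.

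The numbers of called genes by size varied with single libraries. Median changes of the same signs as in SS vs. CT were found for YSS and SR. At 1 to 10 kb and 100 to 300 kb they were 0.016 and -0.035 on the log2 scale in YSS vs. CT. In SR vs. CT they were 0.035 and -0.049. These comparisons share the CT libraries with SS vs. CT. The mean log2 CPM of genes over 100 kb less that of genes of 1 to 10 kb ranged from 1.12 to 1.24 in CT and from 1.02 to 1.28 in SS libraries. Its lowest values, 1.02 and 1.06, were in the 2 SS libraries of cohort XII, and its highest in SS library XIII-L05. Over 100 kb, 84 genes were lower in the full fit, 40 without SS library XII-L03 and 192 without XIII-L05. It was 54 without SS library XII-R03, and 47, 52 and 47 without CT libraries XIII-R06, XIII-R11 and XIII-R12. The classes of 100 to 300 kb and over 300 kb held 1635 and 356 tested genes in the full fit. Lower genes of any size numbered 363 in the full fit, 336 without XII-L03, 583 without XIII-L05 and 319 without XII-R03. They numbered 306, 277 and 298 without CT libraries XIII-R06, XIII-R11 and XIII-R12. Without XII-L03, 93 genes of 1 to 10 kb were higher, among 335 higher genes of any size. In cohort XIII alone the class of 1 to 10 kb turned, with 79 higher and 102 lower genes, while the class of 100 to 300 kb had 23 and 38.

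**Figure D5:**
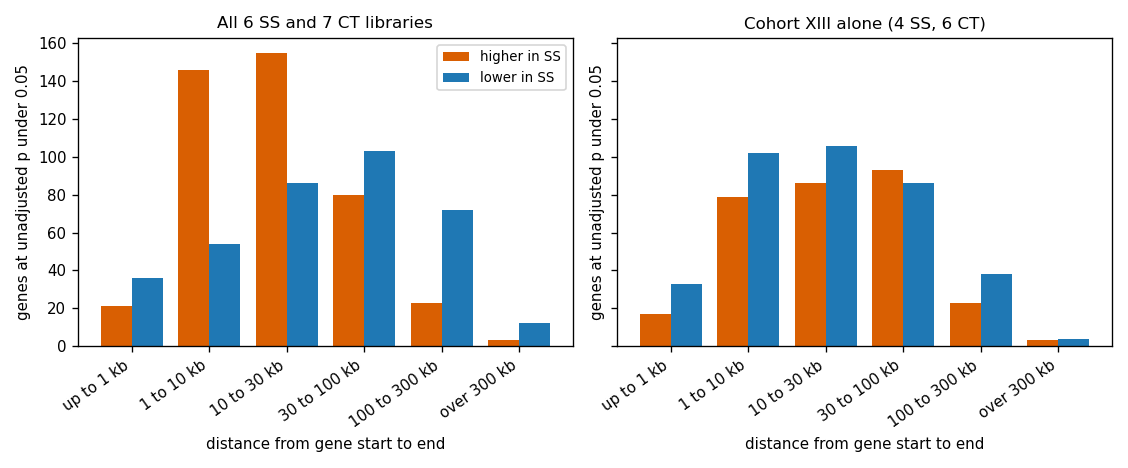
Number of genes higher (orange) or lower (blue) in SS at an unadjusted p under 0.05, by the distance from gene start to end, in all libraries (left) and in cohort XIII alone (right). The excess of higher genes at 1 to 10 kb, 146 against 54 on the left, is absent on the right, where 79 are higher and 102 lower.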

How the data were processed

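Per the labels and the study's methods, poly(A) RNA of single rats was sequenced as paired reads. The submitters' processing notes name bcl2fastq 2.17, Trimmomatic 0.36, STAR 2.5.2b and featureCounts of Subread 1.5.2. The genome build, annotation release and use of strand are not given in the sources used here, and coordinates are those of the tables. The authors deposited raw counts per Ensembl gene, 1 table per rat (32552 identifiers). None could be paired with a symbol, so that the gene and marker lists drawn up for this comparison were not analysed here.

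Groups and cohort come from the titles. Counts of all 30 libraries were fitted in edgeR 4.0.16 (R 4.3.3) with group as the only term, after TMM scaling and the filter edgeR applies by default (15797 genes kept). SS vs. CT was tested by quasi-likelihood with Benjamini-Hochberg adjustment. log2 CPM used a prior count of 2. p-values measure the spread between rats' libraries. The fits were first tested on simulated data with changes in well-covered genes only, so that sparse genes were not covered. The 4 identifiers were taken by a rule: smallest p-value in each direction, over 3 counts in at least 50% of the libraries of each group, and p under 0.05 in the same direction with cohort as a covariate. At most 2 per direction are named. The members, lists and tests were chosen with earlier results of these data known. The groups by position and size were picked with their values in view. Alternatives were DESeq2 1.42.0, Tukey's test, other size factors, filters, covariates, sample sets and fold criteria, and fits that omitted 1 of the 13 libraries at a time.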

Additional observations from a re-analysis of the deposited data

Results flagged for a closer look

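ENSRNOG00000026051 stood apart in CT library XIII-R12, at 0.571 CPM against 0.123 to 0.276 CPM in the other 6 CT libraries, and this value rests on 10 counts. It was the 1 such value among 28 groups of values examined, where chance alone gives about 1 in 20, or 1.4 expected.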

How the results depend on the processing

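The number of genes at an adjusted p-value under 0.05, 16, became 6 in cohort XIII alone, 3 among genes of at least 10 counts in each SS and CT library (where 3 of the 16 were tested), and 8 without genes at 3 counts or fewer throughout a group. Leaving out single libraries gave 11 to 17. The log2 change of all 16 stayed negative wherever they were tested. The number at an unadjusted p-value under 0.05, 791, became 127 by Tukey's test and 1287 among all genes with a count, and 613 to 1136 with single libraries left out. The number at 1.7-fold, 83, became 47 and 48 in the SS and CT libraries fitted alone with and without cohort, 32 by Tukey's test, 612 among all genes with a count, 8 among genes of at least 10 counts, 131 at 1.5-fold, and 77 to 98 with single libraries left out. The causes were not tested. No paired analysis was possible because the labels tie no SS rat to a CT rat, and replicates were numbered in accession order. Restricting the chromosome 6 row to genes of at least 1 CPM, added after the data were seen, left 5 of 9. Low counts limit most genes with large changes.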
